A study of Mus musculus with 8 samples.

Results

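Lyz2, the mouse gene of the M-type lysozyme, was followed in platelet RNA together with Lyz1 and 8 genes used as leukocyte markers: Ptprc, S100a8, S100a9, Csf1r, Cd68, Cd14, Cd74 and Coro1a. These 10 genes were taken by symbol from 55487 genes in the deposited tables, and they were chosen by their measured levels and fold changes in these libraries (Lyz2 abundant, the markers scarce), so both are given as a description and tests on them support nothing beyond it. The libraries came from 4 mice labelled Dnmt3a+/- (heterozygous for a de novo DNA methyltransferase gene) and 4 mice labelled WT, all male littermates aged 13 weeks, with 1 library per mouse. Per the labels, platelets were spun out of platelet-rich plasma from heart blood and cleared of CD45-bearing leukocytes and Ter119-bearing red cells with beads. The labels name no driver or construct for the Dnmt3a allele.

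Lysozyme cleaves the peptidoglycan of bacterial cell walls, and in mice Lyz2 is widely used as a marker of macrophages, monocytes and neutrophils, while Lyz1 is known from Paneth cells of the gut. Ptprc encodes CD45, the surface phosphatase of nearly all leukocytes and the target of the bead depletion. Platelets are shed by megakaryocytes and carry RNA inherited from them, so a transcript in a platelet preparation can come from the platelets or from other blood cells left in it. The question put to the data was how the level of Lyz2 compares, library by library, with genes that mark such other cells. No leukocyte library was analysed here, so the ratio of Lyz2 to these markers within a leukocyte was not measured.

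Lyz2 and Lyz1 are neighbours on the minus strand of chromosome 10 (GRCm38), Lyz2 from 117277331 to 117282321 and Lyz1 from 117287797 to 117292868, each with 4 exons and a coding sequence of 444 bases. The first 120 coding bases of both are shown because reads can be assigned to one gene or the other only where the sequences differ; they are from GENCODE M21, 5′ to 3′, and capitals mark the 11 bases that differ.
Lyz2: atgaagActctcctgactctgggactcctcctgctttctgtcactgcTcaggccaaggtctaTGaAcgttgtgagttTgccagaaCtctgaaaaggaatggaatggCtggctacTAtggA
Lyz1: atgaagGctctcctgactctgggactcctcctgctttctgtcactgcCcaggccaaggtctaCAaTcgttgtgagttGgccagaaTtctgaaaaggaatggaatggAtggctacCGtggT
Over the whole coding sequence 422 of 444 bases were identical (95.05%), and over the transcripts 91.95% of aligned positions. Of the windows of 50 bases in the Lyz1 transcript, 16.1% also occur in Lyz2, and of the windows of 100 bases 2.06%. A read from such a window cannot be told apart between the genes, so the few Lyz1 counts carry that uncertainty.

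The stretches before the genes' starts are shown as well, because the pair lies side by side and yet differed in level as described below. They are RefSeq sequences of GRCm38.p6, minus strand, chr10:117282322-117282522 for Lyz2 and chr10:117292918-117293118 for Lyz1, 201 bases each, cut to end before the first annotated start of Lyz2. Capitals mark bases that differ or face a gap in the alignment of the 2 stretches.
Lyz2: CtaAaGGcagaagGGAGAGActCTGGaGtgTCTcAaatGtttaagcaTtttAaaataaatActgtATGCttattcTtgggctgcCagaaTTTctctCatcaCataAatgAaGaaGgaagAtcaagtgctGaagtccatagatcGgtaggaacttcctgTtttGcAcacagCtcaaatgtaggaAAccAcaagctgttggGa
Lyz1: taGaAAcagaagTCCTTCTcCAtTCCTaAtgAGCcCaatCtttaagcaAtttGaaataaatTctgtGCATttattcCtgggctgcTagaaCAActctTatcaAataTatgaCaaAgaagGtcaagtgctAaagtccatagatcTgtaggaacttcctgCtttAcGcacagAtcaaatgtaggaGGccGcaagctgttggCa
Of 203 aligned positions 151 were identical (74.38%). The value was 79.37% over the 250 bases before the RefSeq starts and 92.0% over the last 100 of them, part of which lies beyond the printed stretch and is more alike between the genes. In the 250 bases before the RefSeq starts, GAGGAA, a core bound by the myeloid factor PU.1, was found on neither strand of either gene, and it occurs in 23.3% of all 32851 such windows. TTNNGNAA, a common form of the C/EBP site, was found 1 time in each, and 36.8% of windows hold it. Of PU.1 sites only the GAGGAA form was sought, and the shorter GGAA within it can be read in both printed stretches. How often GGAA occurs in such windows was not counted. These matches are a description of letters.

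Total counts ran from 15620972 to 22160394 in the libraries labelled Dnmt3a+/- and from 15185218 to 17398666 in WT. Dnmt3a itself was at 16.3 ± 6.73 CPM in the libraries labelled Dnmt3a+/- and 20.3 ± 1.70 CPM in WT (SD, n = 4 each; CPM is counts scaled to library size with TMM factors), so transcript level did not separate the labels and each direction below is one between labels. Genes of red cells (10 genes) took 2.03% of counts in WT replicate 1, against 0.203% to 0.486% in the other 7 libraries, and genes of hepatocytes (14 genes) took 0.177% in WT replicate 3 and 0.000277% to 0.145% in the others. Among 17 platelet genes 16 averaged over 100 TPM (a length-corrected level that sums to the same total in each library), with Ppbp, a chemokine of the alpha granule, at 22126 ± 1047 TPM in the libraries labelled Dnmt3a+/- and 20297 ± 2036 TPM in WT.

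Lyz2 was among the most abundant transcripts of every library. In TPM it stood at 4921, 3233, 3479 and 3754 in replicates 1 to 4 labelled Dnmt3a+/-, and at 6073, 3667, 3309 and 4193 in WT replicates 1 to 4. It ranked between 30th and 44th of all genes by TPM, above the integrin chain Itga2b (2644 ± 490 TPM in the libraries labelled Dnmt3a+/- and 2763 ± 548 TPM in WT) and the factor XIII chain F13a1 (570.2 ± 137.4 and 585.2 ± 165.7 TPM in the same order of labels), and below Ppbp. WT replicate 1 and the library labelled Dnmt3a+/- replicate 1 were highest, and the other 6 lay within 3233 to 4193 TPM. In WT replicate 1 its share was 0.647% of counts (95% Wilson interval 0.643% to 0.651%, which covers counting error only, here and below).

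Lyz1 was near the limit of detection. It had 6, 0, 0 and 3 counts in replicates 1 to 4 labelled Dnmt3a+/-, and 6, 4, 5 and 5 counts in WT replicates 1 to 4. A count of 0 allows up to 3 expected counts, or 1.89e-05% of counts in the library labelled Dnmt3a+/- replicate 2. Over all 8 libraries there were 583786 Lyz2 counts and 29 Lyz1 counts, a ratio of 20131 (95% interval 14017 to 30059). Of 7 other genes of lysozyme-like proteins, 5 had 0 counts in all libraries, and the most abundant, the sperm gene Spaca5, had at most 2.

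**Figure D1:**
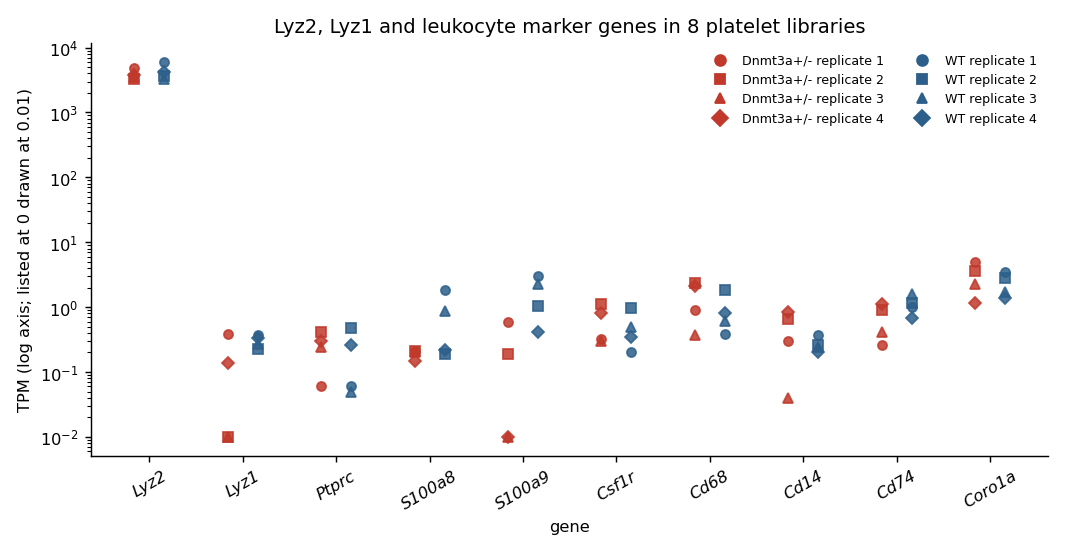
TPM (log axis) of the 10 genes in each of the 8 libraries, Dnmt3a+/- in red at the left and WT in blue at the right of each gene, with 1 marker shape per replicate number. Lyz2 lies between 3233 and 6073 TPM and each other gene at or below 4.98 TPM, with values listed at 0 drawn at the foot of the axis.

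Ptprc was scarce in every library. It had 4, 27, 8 and 27 counts in replicates 1 to 4 labelled Dnmt3a+/-, and 4, 25, 4 and 9 counts in WT replicates 1 to 4, which is 0.05 to 0.47 TPM. The library labelled Dnmt3a+/- replicate 2, the one labelled replicate 4 and WT replicate 2 were high, and the groups overlapped. The TPM of Lyz2 divided by that of Ptprc was 82013, 7885, 14494 and 12514 in replicates 1 to 4 labelled Dnmt3a+/-, and 101216, 7803, 66174 and 16127 in WT replicates 1 to 4. The highest ratios belonged to libraries with 4 Ptprc counts, where the exact Poisson interval of the count runs from 1.09 to 10.2, and TPM is written to 2 decimals. Pooled over libraries, Lyz2 had 5405 counts for each Ptprc count (95% interval 4477 to 6590, not corrected for length).

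The monocyte and macrophage markers were also scarce, with medians over the 8 libraries of 0.425 TPM for Csf1r, 0.86 TPM for Cd68 and 0.28 TPM for Cd14, beside 0.25 TPM for Ptprc. Csf1r, the receptor of macrophage colony-stimulating factor, had 18, 58, 13 and 61 counts in replicates 1 to 4 labelled Dnmt3a+/-, and 11, 51, 21 and 18 counts in WT replicates 1 to 4. Cd68, a glycoprotein of macrophage lysosomes, had 11, 37, 6 and 46 counts in the libraries labelled Dnmt3a+/- and 6, 28, 11 and 11 in WT. Cd14, the lipopolysaccharide co-receptor, had 6, 14, 1 and 25 counts and 7, 6, 6 and 4 counts in the same order of labels. Csf1r and Cd68 were highest in the same 3 libraries as Ptprc, and over the 8 libraries the log2 CPM of Csf1r correlated with Cd68 at r = 0.99 and with Ptprc at r = 0.86 (descriptive; these genes share depth and scaling). The median ratio of Lyz2 TPM over marker TPM was 9106 for Csf1r, 5269 for Cd68 and 15254 for Cd14.

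Cd74, the invariant chain of MHC class II, had 3, 14, 6 and 19 counts in the libraries labelled Dnmt3a+/- and 16, 19, 20 and 10 in WT. Coro1a, an actin-binding protein of haematopoietic cells, had 32, 29, 20 and 29 counts and 47, 37, 19 and 14 counts in the same order of labels, and was the most abundant of the 8 markers, at 1.15 to 4.98 TPM. Its TPM and counts ranked libraries differently: 29 counts gave 3.57 TPM in the library labelled Dnmt3a+/- replicate 2 and 1.15 TPM in replicate 4, which was also deeper. The median ratio of Lyz2 TPM was 4793 to Cd74 and 1638 to Coro1a, and in the library with the lowest ratio Lyz2 was still 906 times Coro1a.

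The neutrophil markers S100a8 and S100a9, which together form the abundant cytosolic protein calprotectin of neutrophils, had the fewest counts of the 8, at 20 and 42 over all libraries. Per length the median of S100a8, 0.21 TPM, was the lowest of the 8, whereas that of S100a9, 0.50 TPM, was above those of Ptprc, Cd14 and Csf1r. S100a8 had 1 count in each library labelled Dnmt3a+/-, and 9, 1, 5 and 1 counts in WT replicates 1 to 4. S100a9 had 3, 1, 0 and 0 counts in the libraries labelled Dnmt3a+/- and 16, 6, 14 and 2 counts in WT. WT replicates 1 and 3 were high for both genes. They are also the libraries with the largest shares of red cell and of hepatocyte genes, in that order. WT replicate 4, with 0.145% of counts in hepatocyte genes beside 0.177% in WT replicate 3, had only 1 S100a8 and 2 S100a9 counts. The part of either cell type in these counts was not tested. The median ratio of Lyz2 TPM was 18226 to S100a8 and at least 7363 to S100a9. The latter is a lower bound, because the libraries with 0 S100a9 counts were set to 3.

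The wider marker lists gave the same order of levels, with some exceptions. Among 21 monocyte and macrophage genes other than Fcer1g, mean levels were all below 3 TPM, the highest being C1qb, a chain of complement C1q, at 2.20 ± 1.82 TPM in the libraries labelled Dnmt3a+/- and 1.56 ± 1.10 TPM in WT. Their summed level was 13.1, 32.4, 9.71 and 29.9 CPM in replicates 1 to 4 labelled Dnmt3a+/-, and 16.5, 30.5, 26.4 and 17.5 CPM in WT replicates 1 to 4, highest in the same 3 libraries as Ptprc, Csf1r and Cd68. Of 18 neutrophil genes 5 had 0 counts in all libraries (Elane, Ctsg, Camp, Chil3 and Fcnb, all granule or secreted proteins) and 17 averaged under 3 TPM. The exception was Anxa1, annexin A1, at 5.42 ± 1.64 TPM in the libraries labelled Dnmt3a+/- and 4.58 ± 1.58 TPM in WT. The 17 others summed to 0.264 to 1.86 CPM and to 0.764 to 1.19 CPM in the same order of labels.

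Fcer1g, the Fc receptor gamma chain that also carries the collagen receptor of platelets, was at 1283 ± 246 TPM in the libraries labelled Dnmt3a+/- and 1319 ± 255 TPM in WT. Of 14 genes shared by many leukocytes, 3 exceeded 100 TPM: Laptm5, a lysosomal membrane protein, at 1257 ± 143 and 1330 ± 221 TPM in the same order of labels, Arhgdib at 1050 ± 117 and 1097 ± 153 TPM, and Itgb2, the beta chain of the leukocyte integrins, at 521 ± 93.1 and 596 ± 136 TPM (SD, n = 4 each). Fcer1g, Laptm5, Arhgdib and Itgb2, like Lyz2, are genes known from leukocytes that exceeded 100 TPM in these libraries, beside Ptprc at 0.05 to 0.47 TPM. Of 4 liver macrophage genes the most abundant was Cd5l, with 1 to 29 counts. The B cell and MHC class II list was led by Igkc, an immunoglobulin light chain, at 3.19 ± 3.86 TPM and 1.06 ± 0.82 TPM. The T and NK cell list was led by Nkg7, a cytolytic granule protein, at 13.5 ± 2.54 and 13.5 ± 4.20 TPM, and in it Cd3e and Cd3g had 0 counts throughout.

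**Figure D2:**
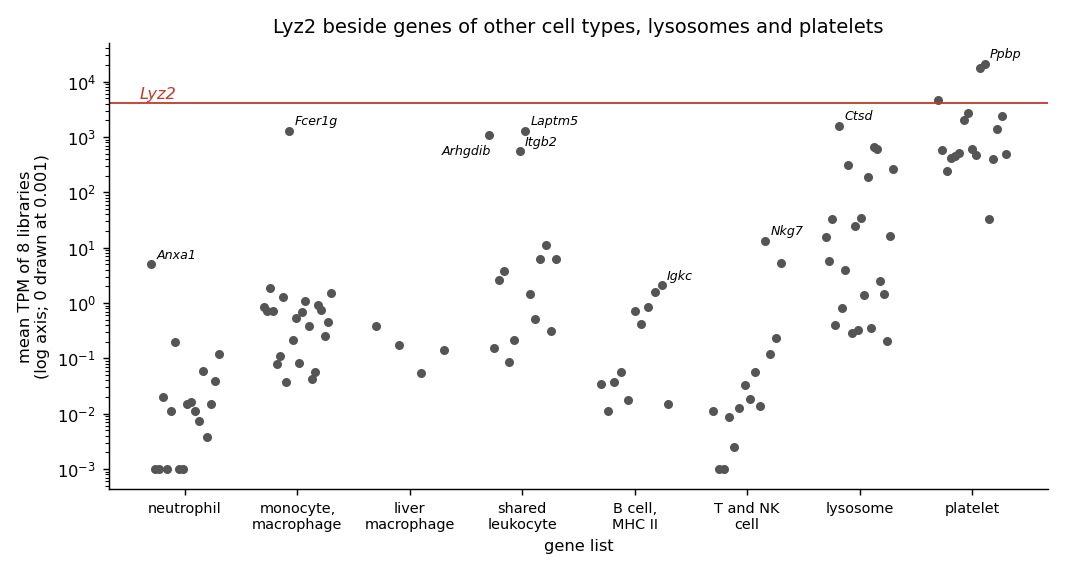
Mean TPM over the 8 libraries (log axis) of each gene in 8 lists, as grey points, with the mean of Lyz2 as a red line. Fcer1g, Laptm5, Arhgdib and Itgb2 stand apart from the other blood cell genes, which lie at or below 13.5 TPM, and the platelet list lies on both sides of the Lyz2 line.

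Of 22 lysosomal genes 6 exceeded 100 TPM, led by the protease Ctsd at 1615 ± 127 TPM in the libraries labelled Dnmt3a+/- and 1569 ± 235 TPM in WT. Of 7 myeloid transcription factors none did, and Cebpd and Cebpe had 0 counts throughout. Runx1, which also acts in megakaryocytes, led them at 3.58 ± 0.27 TPM and 3.67 ± 0.38 TPM in the same order of labels. Spi1, the gene of PU.1, had 2 to 9 counts per library.

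Across libraries the markers fell on both sides of Lyz2, which was highest in WT replicate 1. Coro1a, S100a8 and S100a9 were also highest there in CPM, whereas Ptprc, Csf1r and Cd68 were highest in the library labelled Dnmt3a+/- replicate 2, Cd14 in the one labelled replicate 4 and Cd74 in WT replicate 3. After TMM scaling it was at 5366, 3342, 3674 and 3774 CPM in replicates 1 to 4 labelled Dnmt3a+/-, and at 6599.8, 3565, 4058 and 4353 CPM in WT replicates 1 to 4. Ptprc was at 0.264, 1.67, 0.485 and 1.17 CPM in the libraries labelled Dnmt3a+/-, and at 0.255, 1.35, 0.251 and 0.587 CPM in WT. WT replicate 1 and the library labelled Dnmt3a+/- replicate 1, with the most Lyz2, thus had some of the least Ptprc, and the library labelled Dnmt3a+/- replicate 2, with the least Lyz2, had the most Ptprc. Lyz2 spanned 1.98-fold between the lowest and highest library, whereas Ptprc spanned 6.66-fold, Csf1r 5.13-fold and Cd68 6.30-fold. The marker spans rest on 4 to 27, 11 to 61 and 6 to 46 counts per library, in that order. They therefore hold far more counting error than that of Lyz2.

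**Figure D3:**
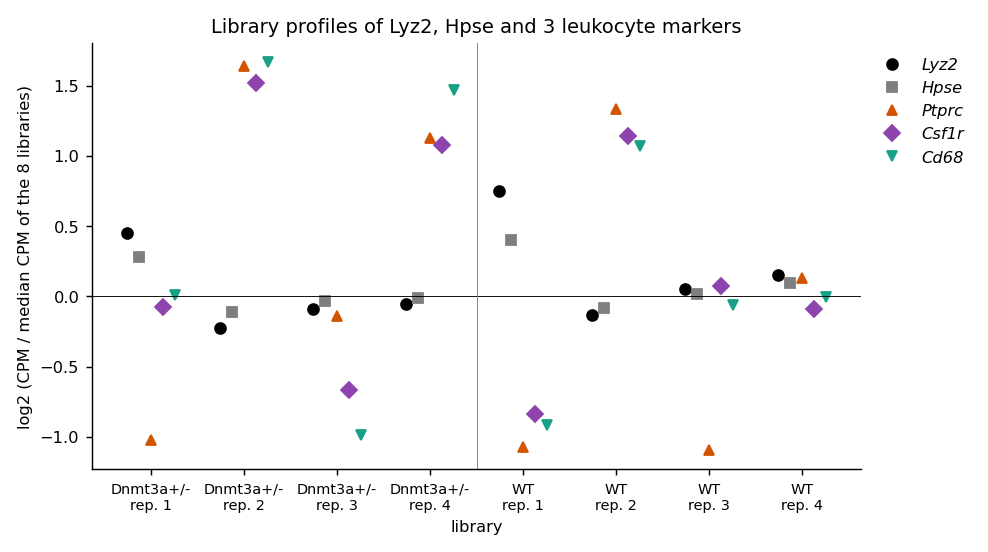
Level in each library (x axis, Dnmt3a+/- left and WT right) as log2 of CPM over the gene's own median of the 8 libraries, for Lyz2, Hpse and 3 of the 8 markers, Ptprc, Csf1r and Cd68. These 3 markers are high in the libraries labelled Dnmt3a+/- replicates 2 and 4 and in WT replicate 2, where Lyz2 and Hpse are at or below their medians. The markers not drawn differ from these 3. Their Pearson r with Lyz2 was 0.67 for S100a8, 0.56 for S100a9, 0.54 for Coro1a, 0.0078 for Cd14 and -0.19 for Cd74.

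In log2 CPM over 8 libraries, Lyz2 and Ptprc had a Pearson r of -0.75 (exact permutation p = 0.0253, two-sided) and a Spearman coefficient of -0.76 (exact permutation p = 0.0368). Adjusted over the 9 genes compared with Lyz2, these were p = 0.126 and p = 0.130 (exact permutation, Benjamini-Hochberg), so the relation did not pass. Without the library labelled Dnmt3a+/- replicate 1 and WT replicate 1, the farthest from the median of Lyz2, r was -0.69, and over deviations from the group means it was -0.73. For Csf1r r was -0.69 (Spearman -0.74, exact permutation p = 0.0561 and 0.0458), and -0.61 without those libraries. For Cd68 r was -0.61 (Spearman -0.50, exact permutation p = 0.108 and 0.216), and -0.51 without them. Adjusted, none of the 9 relations passed (exact permutation adjusted p 0.126 to 0.983 for r and 0.0964 to 0.977 for the Spearman coefficient). Cd14 had r = 0.0078 and Spearman coefficient = 0.0238 (exact permutation p = 0.983 and 0.977), and r = -0.22 without them.

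Lyz1 had r = 0.67 and Spearman coefficient = 0.86 (exact permutation p = 0.0479 and 0.0107), and r = 0.73 without those libraries. Its counts were at most 6, and whether they include reads shared with Lyz2 was not tested. S100a8 had r = 0.67 (Spearman 0.71, exact permutation p = 0.0538 and 0.0576) and S100a9 r = 0.56 (Spearman 0.50, exact permutation p = 0.143 and 0.216); without those libraries r was 0.39 and 0.29, lower in both cases. Coro1a had r = 0.54 (Spearman 0.21, exact permutation p = 0.174 and 0.619), and r = -0.87 without them, a change of sign. Cd74 had r = -0.19 (Spearman -0.19, exact permutation p = 0.675 and 0.665) and 0.0071 without them.

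The genes with the profile most like that of Lyz2 were sought among 2589 named genes with a mean of at least 10 CPM, a limit that leaves out the 8 leukocyte markers and Lyz1. In this range the 5 highest Pearson r with Lyz2 over the 8 libraries belonged to Hpse, heparanase (0.996), Ppt1, a lysosomal thioesterase (0.98), Arhgdib (0.98), Cfl1, cofilin (0.98), and Ptgs1, cyclooxygenase 1 (0.98). Hpse was at 2252, 1720, 1813 and 1839 CPM in replicates 1 to 4 labelled Dnmt3a+/-, and at 2448, 1753, 1873 and 1984 CPM in WT replicates 1 to 4, so that both genes put the 8 libraries in the same order. Without WT replicate 1 the 5 values were 0.994, 0.96, 0.97, 0.96 and 0.94. F13a1 had r = 0.96, Fcer1g 0.97 and Itga2b 0.76, whereas Pf4, platelet factor 4, had -0.21 and Ppbp -0.14. Without WT replicate 1 these were 0.92, 0.98, 0.60, -0.20 and 0.74, so that Ppbp turned in sign and came above Itga2b. These are descriptions over points that share depth and scaling, and 93 genes reached 0.9, or 36 without WT replicate 1. The red cell gene Alas2 had r = 0.84, or 0.51 without WT replicate 1, and the red cell list took 0.486% of counts in the library labelled Dnmt3a+/- replicate 1, its second highest share; the part of this in the Lyz2 profile was not tested.

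**Figure D4:**
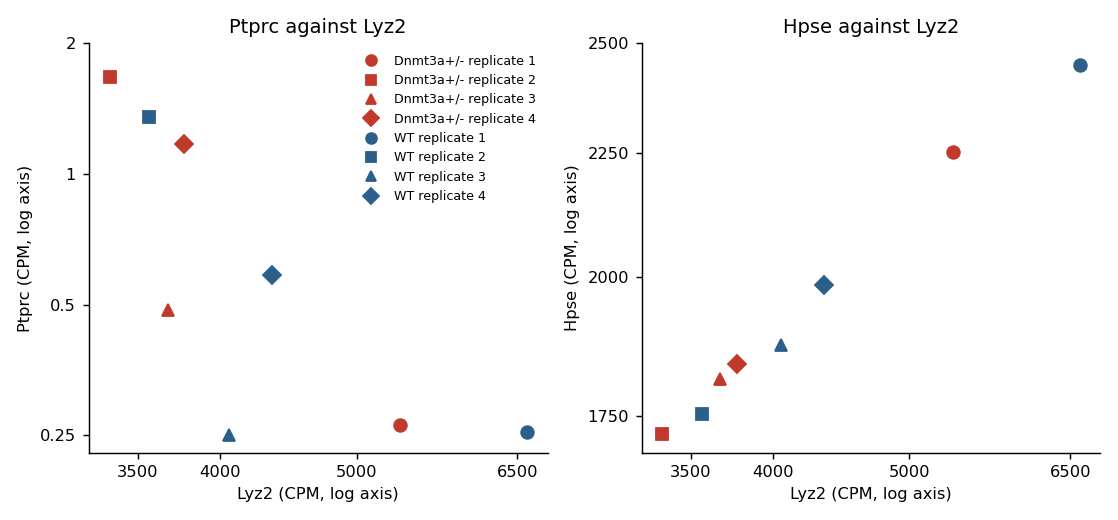
CPM of Ptprc (left) and Hpse (right) against CPM of Lyz2, log axes, 1 point per library, Dnmt3a+/- in red and WT in blue. Ptprc is between 0.251 and 1.67 CPM and at 0.255 CPM in the library with the most Lyz2, and Hpse rises with Lyz2 through all 8 libraries.

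Between the labels no gene of the 10 passed the test. Lyz2 averaged 4039 ± 904 CPM in the libraries labelled Dnmt3a+/- and 4644 ± 1344 CPM in WT (SD, n = 4 each), a log2 fold change of -0.20 (SE 0.20, 95% interval -0.65 to 0.25, edgeR quasi-likelihood adjusted p = 0.998). Without WT replicate 1 it was 0.016, with the sign turned, in a fit that called 135 genes (1.75%). Without the library labelled Dnmt3a+/- replicate 2 the fit called 1 gene (0.013%). Of the 10 genes 5 passed the filter on low counts. The other tested genes were Csf1r at 0.46 (SE 0.51), Cd68 at 0.70 (SE 0.57), Cd74 at -0.77 (SE 0.44) and Coro1a at -0.17 (SE 0.38), all at an adjusted p of 0.998 in edgeR, and Coro1a turned to 0.20 without WT replicate 1. With 1 library left out at a time, Csf1r ran from 0.048 (without the library labelled Dnmt3a+/- replicate 2) to 0.95 (without WT replicate 2), Cd68 from 0.32 to 1.18 with the same libraries left out, and Cd74 from -1.04 (without the one labelled Dnmt3a+/- replicate 2) to -0.51 (without the one labelled replicate 1). The fit called 0 of 7362 genes (0%) at an adjusted p under 0.05, and 362 (4.92%) had an unadjusted p under 0.05, none of them among the 5. DESeq2 called 9 genes and limma 0. In no gene of the 10 were the groups' CPM values separate, against 2.54% of all genes tested (1.17% lower in the libraries labelled Dnmt3a+/-) and 2.02% of genes with at least 1 count (1.13% lower). In such bulk libraries fewer cells of a type and less RNA per cell cannot be told apart.

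With no filter on low counts edgeR tested all 10 genes and called 250 of 18462 genes (1.35%), none of the 10. The lowest adjusted p was that of S100a9, at 0.0649 ± 0.0933 CPM in the libraries labelled Dnmt3a+/- and 0.588 ± 0.428 CPM in WT, from 4 and 38 counts in all (log2 fold change -3.15, SE 0.89, edgeR adjusted p = 0.0739). Its unadjusted edgeR p was 0.0011, where 5.95% of all genes were under 0.05 (4.38% and lower in the libraries labelled Dnmt3a+/-). It did not pass, and with 1 library left out at a time its edgeR adjusted p ran from 0.0061 to 0.201. It passed without the library labelled Dnmt3a+/- replicate 1 (-4.54, adjusted p = 0.0061), without WT replicate 2 (-3.34, adjusted p = 0.0486) and without WT replicate 4 (-3.46, adjusted p = 0.0208). How many of all genes passed in these unfiltered fits was not recorded, so these passes cannot be set against a share of all genes. The values rest on single-digit counts in 6 of the 8 libraries, and WT replicates 1 and 3 held 16 and 14 of the 38 WT counts. S100a8 was at -1.99 (SE 1.04), Lyz1 at -1.19 (SE 0.90), Ptprc at 0.55 (SE 0.54) and Cd14 at 0.80 (SE 0.62), all at an adjusted p of 0.793 in edgeR.

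**Figure D5:**
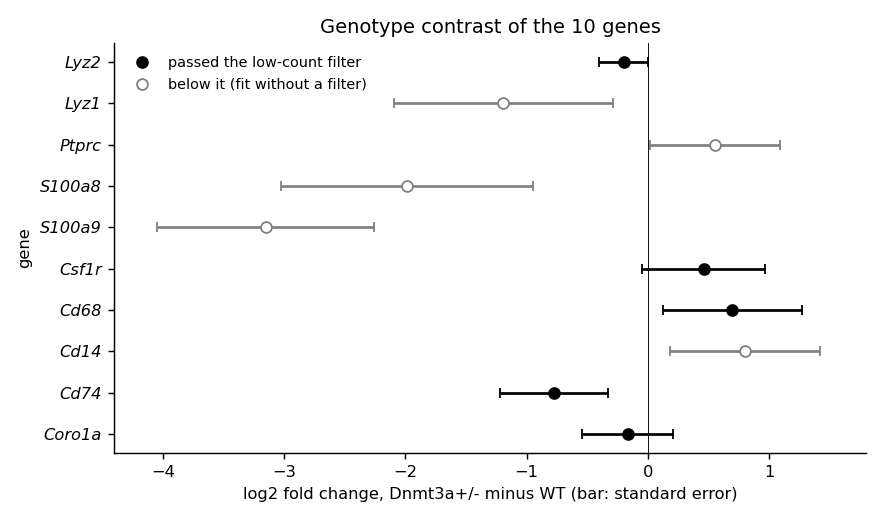
Log2 fold change, Dnmt3a+/- minus WT, of the 10 genes with its standard error; filled points passed the low-count filter and open points come from the fit without it. Lyz2 lies near 0 with the shortest bar, and S100a9 is farthest from 0 at -3.15.

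In the filtered fit 0 members of any list passed the edgeR test, against 0% of all genes. With no filter, where 1.35% of all genes passed, 14 of 14 hepatocyte genes and 5 of 10 red cell genes did, and 0 of the other lists. Of the neutrophil list 2 of 18 genes were tested, both with positive log2 fold changes (median 0.23, beside -0.0050 for all genes tested). These were Cybb at 0.42 (SE 0.65) and Anxa1 at 0.04 (SE 0.27), so the median does not stand for the list. In the fit with no filter Mpo, Ltf, Ngp, Mmp8, Mmp9, Csf3r, Cxcr2 and Ly6g were negative. Prtn3, Lcn2 and Retnlg were positive there, as were Cybb and Anxa1. Of the 18 genes 16 had at most 10 counts in any library. Mpo, Ltf, Ngp, Ly6g, Prtn3 and Lcn2 had at most 1, Mmp8 and Mmp9 at most 2, and Cxcr2 at most 3. Csf3r reached 5 and Retnlg 6. Most of these directions thus rest on very few reads, and their tally does not describe the list. Of the monocyte and macrophage list 8 of 22 were tested, 5 positive and 3 negative (median 0.07), with Fcer1g at -0.09 (SE 0.17). Of the shared leukocyte list 10 of 14 were tested, 4 positive and 6 negative (median -0.11), with Laptm5 at -0.11 (SE 0.14). Of the lysosome list 18 of 22 were tested, 7 positive and 11 negative (median -0.08), with Ctsd at 0.02 (SE 0.12). All 17 platelet genes were tested, 6 positive and 11 negative (median -0.06). Several of these small medians turned in sign with 1 library left out. Without WT replicate 1 the platelet list had 12 positive and 5 negative (0.049), the lysosome list 10 and 8 (0.054) and the shared leukocyte list 6 and 4 (0.041). Without the library labelled Dnmt3a+/- replicate 2 the monocyte and macrophage list had 1 positive and 7 negative (-0.15), the neutrophil median was -0.08 and the platelet median 0.0086. The monocyte and macrophage median was also below 0 without the library labelled Dnmt3a+/- replicate 4 (-0.011). Of the smaller counts, 3 of 11 B cell and MHC class II genes had a median of -0.41, 2 of 14 T and NK cell genes -0.08, 2 of 7 myeloid transcription factors -0.16, and the 1 tested liver macrophage gene, Cd5l, was at -1.35 (SE 0.80). Without WT replicate 1 the T and NK cell median was 0.11, and it was 0.0078 without the library labelled Dnmt3a+/- replicate 3. Without WT replicate 2 the B cell and MHC class II median was 0.19. The hepatocyte genes had a median of -3.78 over 13 tested and the red cell genes -2.12 over 7, all negative; without WT replicate 1 the red cell median was 0.43, so that it turned in sign.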

How the data were processed

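Platelet RNA from 8 mice was sequenced as stranded polyadenylated libraries, per the labels' protocols. The authors deposited estimated counts per gene, written as whole numbers, and TPM values. The submitters' processing notes name mm10, STAR, RSEM, cutadapt and DESeq2; roles, versions, annotation and the counting's strand setting are not given in the sources used here. If counting ignored strand, antisense reads would be included. The estimated counts were rounded, which changed none, and tested with edgeR 4.0.16 under R 4.3.3: TMM factors, filterByExpr (minimum count 10, minimum total 15), glmQLFit and glmQLFTest, with Benjamini-Hochberg adjustment over all 7362 genes kept and a threshold of 0.05. Each standard error is the log2 fold change divided by the root of F. Correlations used log2 CPM after adding 0.5 counts and all 40320 pairings. TPM compares genes and CPM compares libraries. Alternatives were other scalings and filters, DESeq2 1.42.0, limma 3.58.1 on log2(TPM + 0.1), a replicate block, summed Lyz2 and Lyz1, and each library left out. The routines were tested on simulated data.

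Coordinates come from GENCODE M21 (GRCm38, also called mm10). The 10 genes, the 12 lists and the naming rule were chosen with earlier results of these data known. The rule named all 10 genes, the highest member of each list by mean TPM, and the 5 genes most like Lyz2. Other genes named as levels (C1qb, Arhgdib, Itgb2, Spi1, Alas2 and genes at 0 counts) were chosen after their values were seen. The neutrophil genes named by direction were also added after that, and they are all those of the list with at least 1 count. The labels call the samples biological replicates. No number marks a shared litter or day, and same-numbered libraries deviated together at r = -0.13, 0.05, 0.21 and -0.22, so they were not paired.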

Additional observations from a re-analysis of the deposited data

How the results depend on the processing

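Over other scalings, filters, tools, the replicate block and the summing of Lyz2 with Lyz1, Lyz2 kept a negative log2 fold change that did not pass. Leaving out 1 library gave -0.36 to 0.016 for Lyz2, -0.37 to 0.20 for Coro1a and 0 to 135 genes called, the 135 without WT replicate 1; the cause was not tested. Coro1a was at 0.25 with limma on TPM. The count of genes was 250 without a filter and 9 with DESeq2, against 0. With a replicate block it was 0 genes, and Lyz2 was at -0.19 (edgeR adjusted p = 0.757); the numbers pair nothing known, and each library labelled Dnmt3a+/- correlated best with a WT library of another number. With libraries left out, r with Lyz2 ran from -0.87 to -0.69 for Ptprc, -0.91 to -0.55 for Csf1r, -0.88 to -0.44 for Cd68, -0.33 to 0.22 for Cd14 and -0.66 to 0.24 for Cd74. Csf1r (-0.91) and Cd68 (-0.88) passed without the library labelled Dnmt3a+/- replicate 3. The monocyte and macrophage median turned to -0.04 with limma, -0.07 with the replicate block and -0.10 with the strict filter, and the shared leukocyte median to 0.01 with the strict filter. In counts, not per length, the median ratio of Lyz2 was 63222 to S100a8, at least 23656 to S100a9 and 2770.5 to Coro1a. Fewer than 10 counts per library limit Lyz1, S100a8 and most values of Ptprc, Cd14 and S100a9. The fits of the unfiltered genes and of likeness with libraries left out were added after seeing the data.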
